A study of Drosophila melanogaster with 3 samples.

Results

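Binding of the Pipsqueak (Psq) protein was described at its own gene, psq (FBgn0263102), which lies on the plus strand of chromosome arm 2R from 10557888 to 10617280 on the genome build dm6. All peak summits in this span with 5 kb on each side (2R:10552888-10622280) were taken, and each was placed by its distance to every annotated psq transcription start site (TSS) and by exon or intron. The authors' optimal list, the peaks that passed their test of reproducibility, held 50 summits there, of 10105 on the large chromosome arms. The list called by the authors on all replicates together, which also holds weaker peaks and background, had 86 of 29963. The permissive lists of single replicates had 82, 81 and 86. The chromatin came from whole wandering larvae of the third instar of Drosophila melanogaster, males and females pooled, in 1 group of 3 biological replicates, with DNA fragments of 200 to 300, 175 to 275 and 175 to 250 bp in replicates 1, 2 and 3. All larvae carried a transgene for Psq with eGFP at its C-terminal end, and the description of the samples says that immunoprecipitation was done with an antibody to GFP. Another label gives the antibody as psq, so whether untagged Psq adds to the scores cannot be told. There is no other genotype, stage or treatment, so no difference between groups was tested, and the values are from a whole animal in which tissues cannot be told apart. The labels do not say how much psq DNA the insert carries, which of the protein's forms bear the tag, or whether the resident psq alleles remain. The number of reads behind each value is unknown, since the lists hold peaks and not counts.

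Psq is a nuclear factor of the BTB family that binds GA-rich repeats through its Psq-type DNA-binding motifs. The gene is known for its roles in oogenesis and embryonic patterning and for links to the Polycomb and trithorax systems of gene silencing and activation. Its transcripts start at alternative promoters, and the long protein form carries the BTB domain, a protein contact domain, while the short form lacks it.

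The annotation gives psq 15 transcripts from 5 TSSs, all on the same strand. TSS 1 (10557888) starts 6 transcripts for proteins of 1043 to 1170 amino acids, whose coding sequence begins 3917 bp downstream. TSS 2 (10568942), TSS 3 (10569222) and TSS 4 (10569954) lie within 1012 bp of each other, about 11 to 12 kb into the gene, and start 1, 2 and 1 transcripts. TSS 5 (10583686) lies 25798 bp into the gene and starts 5 transcripts. The 9 transcripts of TSS 2 to TSS 5 encode proteins of 639 to 772 amino acids, and their coding sequence starts at 10611492 or 10611674, behind the longest intron. Coding exons before these positions thus belong to transcripts of TSS 1 alone.

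Psq summits lay mostly in the introns of psq. Of the 50 optimal summits, 40 (80.0%) were intronic, 3 lay in exons, 4 in the 5 kb before the gene and 3 in the 5 kb after it. Introns make up 74.6% of the window and exons 11.0%, so the intronic share of summits was near that of the bases. Over all optimal summits on the arms, 49.2% lay in introns and 24.3% in exons of any gene. The arms include DNA between genes, so these shares are not a like measure for a window made mostly of 1 gene. The 10138 highest-scoring peaks of each replicate, as many as the optimal list holds, gave 49, 49 and 58 summits in the window in replicates 1, 2 and 3, of which 40, 40 and 47 were intronic. The intronic share over the replicates was 81.4% ± 0.346 (SD, n = 3). The density was 0.772 optimal summits per kb of intron and 0.395 per kb of exon, the latter from only 3 summits. In the list of all replicates, which holds weaker peaks, 9 of 86 summits (10.5%) were exonic, near the exons' share of the window. The lower exon density thus depends on the list. The 50 summits came from 43 peak intervals, since some broad intervals were split into several summits. Their spacing had a median of 803 bp, and 35 of 49 spacings were at most 1000 bp.

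**Figure D1:**
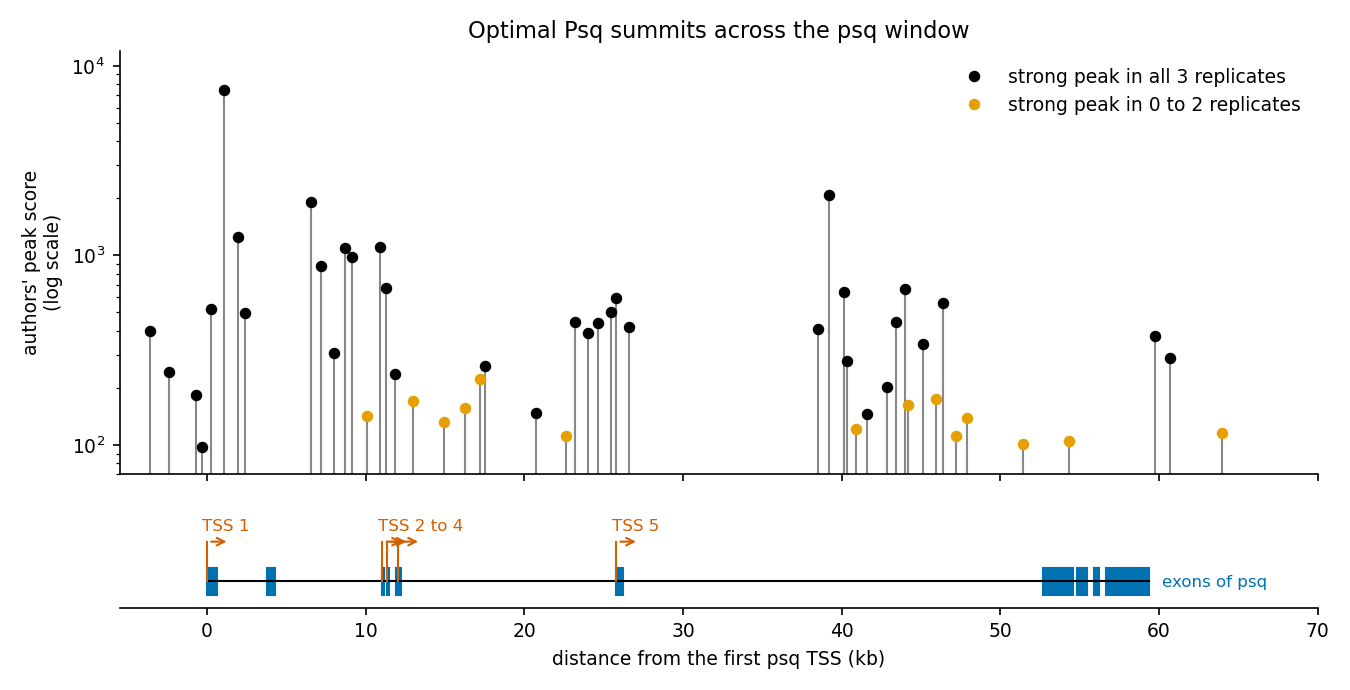
Optimal summits in the psq window by distance from TSS 1 (kb) and by the authors' score (log scale), with the exons and TSSs of psq drawn below and black points for summits matched by a strong peak in all 3 replicates (orange, 0 to 2). The highest summit (score 7485) stands in the first intron, and a stretch of 11908 bp downstream of TSS 5 has no optimal summit.

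The highest site of the gene was also the highest peak on the chromosome arms in every list. It spans 2R:10558619-10559191, with its summit at 10558964 in the first intron, 1076 bp downstream of TSS 1, and its score in the optimal list was 7485. To set the replicates side by side, scores are given here as multiples of the median among a replicate's 10138 highest-scoring peaks (relative score). The site's relative score was 42.8 in replicate 1, 41.3 in replicate 2 and 39.1 in replicate 3, a mean of 41.1 ± 1.88 (SD, n = 3). The second peak on the arms by score in the optimal list lay within Smr (X:12735032-12735615), a corepressor gene. Its relative scores were 22.5, 23.7 and 24.4 in the same replicates (23.5 ± 0.972; SD, n = 3). In replicate 1 a peak in no gene (summit X:22433093) was above it, at 25.3. All replicate values at psq were above all those at Smr. Next by score in the optimal list came a further peak within Smr (22.6 ± 1.29) and the one at X:22433093 (20.7 ± 5.23). A peak in CG1910 (17.0 ± 2.39; SD, n = 3 each) followed. The sixth, 183 bp from a TSS of EcR, the ecdysone receptor gene, reached 16.3 ± 0.600 (SD, n = 3). The replicate summits at psq fell within 6 bp of each other. On the older build dm3 the highest peak of each list on the large arms was likewise on 2R, at 1.59 to 1.88 times the second, against 1.60 to 1.74 times on dm6 (no coordinate was converted).

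Extra copies of psq DNA in the transgenic line and stronger binding cannot be told apart from these lists. The optimal summits of the window had a median of 322, against 181 over all optimal summits on the arms.

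The other strong sites fell into 2 stretches, the 11 kb from the first intron to the TSS 2 to TSS 4 region and a cluster deep in the longest intron. The second site by score (summit 10597081, score 2080) lay in the longest intron, 13395 bp downstream of TSS 5. Its relative scores were 11.0, 11.8 and 11.6 in replicates 1, 2 and 3 (11.5 ± 0.395; SD, n = 3). The next (10564468, score 1908) lay in the third intron block, 4474 bp upstream of TSS 2, with 13.1, 10.1 and 9.80 (11.0 ± 1.81; SD, n = 3). These sites overlapped each other over the replicates, and both stood clear of the highest site and of the fourth. The ratio of the highest to the next highest was 3.60 in the optimal list and 3.27, 3.50 and 3.37 in the replicates. In replicate 1 the next highest was the third site and in replicates 2 and 3 it was the second.

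The fourth site (10559846) lay 882 bp behind the highest one in the same intron, with relative scores of 7.70, 6.68 and 7.29 (7.22 ± 0.512; SD, n = 3). Its replicate range overlapped that of the fifth (10568783; 5.67 ± 1.37), which overlapped that of the sixth (10566597; 6.47 ± 1.75; SD, n = 3 each). The sixth was above the seventh (10567039; 4.96 ± 0.154) in each replicate, with no overlap. From the seventh to the tenth (10565066, 5.10 ± 1.45; 10569151, 4.10 ± 1.76; 10601889, 3.54 ± 0.486; SD, n = 3 each), neighbours in the order overlapped. Of the 10 highest sites, 8 lay between 1076 and 11263 bp from TSS 1 and 2 in the longest intron.

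**Figure D2:**
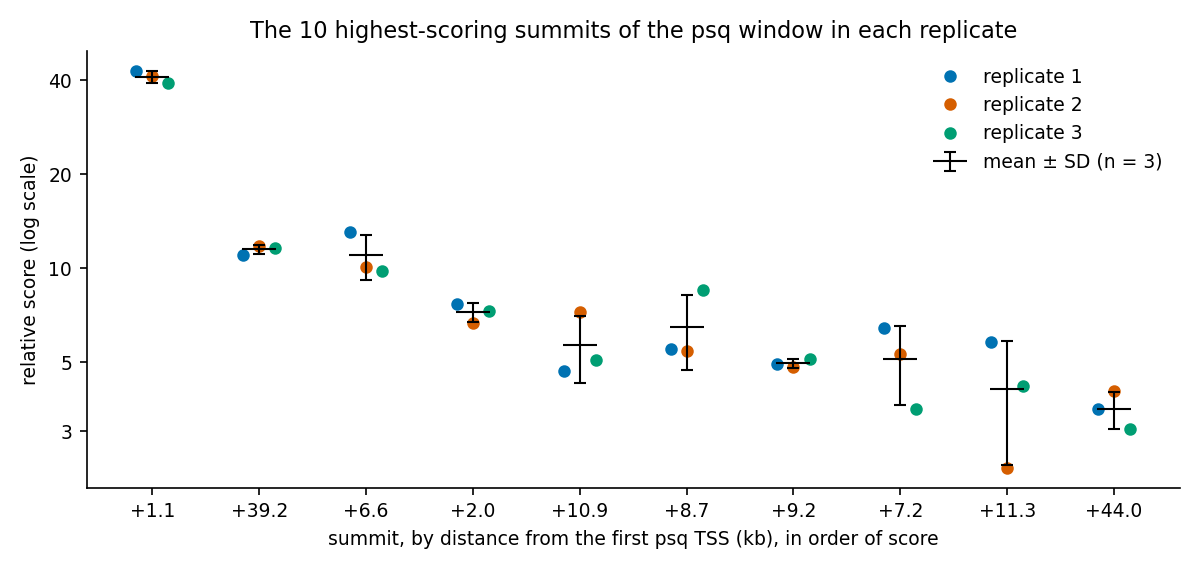
Relative score (log scale) of the 10 highest-scoring sites in each replicate (points) with mean ± SD (n = 3), in order of their score in the optimal list; the x axis gives the distance from TSS 1 in kb. The highest site, at a mean of 41.1, does not overlap any other, and the second and the third overlap each other.

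All 5 TSSs of psq had an optimal summit within 500 bp. Over all annotated TSSs this held for 24.3%, and for 41.3% of those of protein-coding genes with 3 or more TSSs. Every TSS was near a summit at 16.9% of the 1133 protein-coding genes with 3 or more TSSs and at 10.5% of the 190 with 5 or more. TSS 2, TSS 3 and TSS 4 of psq are close enough to share summits, so they are not separate cases. The window is also dense in optimal summits (0.721 per kb), and the share of its positions within 500 bp of one was not computed. The 5 of 5 thus does not show a preference for start sites within the window. Within 200 bp a summit was found at 3 of 5, against 17.8% of all TSSs, and within 1000 bp at 5 of 5, against 29.3%. Each replicate's strongest peaks also had a summit within 500 bp of each of the 5, where they had one at 24.6%, 25% and 23.7% of all annotated TSSs. Of the 50 summits, 7 lay within 500 bp of a psq TSS and 11 within 1000 bp. Summits 49 and 367 bp from TSSs of the neighbouring gene CG11883 are not among the 7. Of all optimal summits on the arms, 44.1% lay within 500 bp of a TSS of any gene, which is a wider measure.

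TSS 1, the promoter of the long forms, had only moderate peaks at the start site itself. The nearest summit (10558161) lay 273 bp downstream in the 5′ UTR, with relative scores of 2.08, 3.23 and 3.20 in replicates 1, 2 and 3 (2.84 ± 0.653; SD, n = 3). A second (10557584) lay 304 bp upstream and was the lowest of the 50, with a score of 97.7, and its replicate values of 2.01, 0.692 and 0.476 spread widely. In replicate 1 the matching summit lay 161 bp from the optimal one, at 143 bp upstream of the TSS. The site 1076 bp downstream was above the highest value within 500 bp of TSS 1 in each replicate, by far more than the spread.

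Among the promoters of the short forms, TSS 2, TSS 3 and TSS 5 had higher values than TSS 1 by the highest peak within 500 bp, and TSS 4 had a lower mean that overlapped it. TSS 2 had a summit 159 bp upstream (10568783) with relative scores of 4.69, 7.23 and 5.08 (5.67 ± 1.37; SD, n = 3), and its position in the replicates varied by 4 bp. TSS 3 had one 71 bp upstream (10569151), at 5.81, 2.29 and 4.18 (4.10 ± 1.76; SD, n = 3). TSS 4 had one 221 bp upstream (10569733), at 2.16, 1.54 and 0.756 (1.48 ± 0.701; SD, n = 3), the lowest of the 5 nearest summits. TSS 5 had one 2 bp downstream (10583688), at 2.03, 4.20 and 3.36 (3.20 ± 1.09; SD, n = 3), and another 366 bp upstream (10583320), at 3.88, 1.69 and 4.92 (3.50 ± 1.65; SD, n = 3). In replicate 2 the summit nearest to TSS 5 lay 121 bp upstream, so the position relative to the start site is not fixed to a few bp there.

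Taking the highest peak within 500 bp, the order of the promoters was the TSS 2 and TSS 3 region, TSS 5, TSS 1 and TSS 4. The TSS 2 and TSS 3 region reached 5.81, 7.23 and 5.08 in replicates 1, 2 and 3 (6.04 ± 1.09), and TSS 5 reached 3.88, 4.20 and 4.92 (4.33 ± 0.533; SD, n = 3 each). TSS 1 reached 2.08, 3.23 and 3.20 (2.84 ± 0.655) and TSS 4 reached 2.16, 1.54 and 0.756 (1.49 ± 0.704; SD, n = 3 each). The values of the first, the second and TSS 1 did not overlap between neighbours in this order, while those of TSS 1 and TSS 4 did. The highest peak was not the same summit in each replicate at the TSS 2 and TSS 3 region or at TSS 5. By the optimal summit nearest to the start site, TSS 5 (2.03, 4.20 and 3.36) overlapped TSS 1 (2.08, 3.23 and 3.20). So did TSS 3 (5.81, 2.29 and 4.18), and the order thus depends on the measure. These are peaks of Psq and say nothing of which promoter was in use in the larvae.

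**Figure D3:**
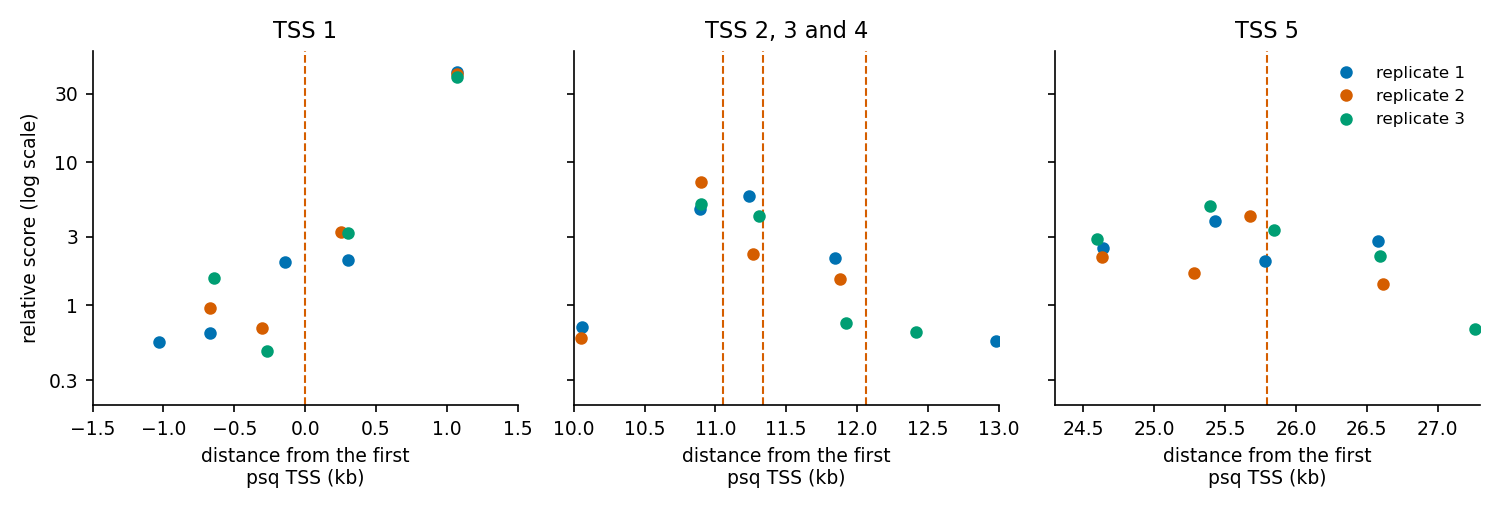
Relative score (log scale) of each replicate's strongest summits around TSS 1, around TSS 2 to TSS 4 and around TSS 5 (dashed lines), by distance from TSS 1 (kb). The points at 1.1 kb, at about 40, are the highest site, and the highest summit within 500 bp of each start site lies between 0.756 and 7.23.

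Summits were unevenly spread over the introns, counted here with those near start sites. The first intron (3152 bp) had 3 optimal summits, with relative scores from 3.01 to 41.1 (means over the replicates). The third intron block (6751 bp), between the first coding exons and TSS 2, had 7, or 1.04 per kb, from 0.506 to 11.0, and 1 of them lay 159 bp upstream of TSS 2. The sixth (13543 bp), between the TSS 4 exon and TSS 5, had 11 at 0.812 per kb, and the highest, at 3.50, lay 366 bp upstream of TSS 5. The replicates' strongest peaks numbered 7, 8 and 8 in the third block and 11, 11 and 16 in the sixth, so that replicate 3 had about the same density in both. The seventh and longest (26426 bp) had 17 at 0.643 per kb, from 0.493 to 11.5. Of these 17, 1 lay 781 bp behind TSS 5 and the other 16 formed a cluster from 10596375 to 10609299, more than 12 kb from any psq TSS. Between the 2 groups was a stretch of 11908 bp with no optimal summit, the longest such gap in the window, while the next longest was 5419 bp. The list of all replicates had 2 weaker summits in it, and of the strongest peaks 0, 0 and 1 lay there in replicates 1, 2 and 3, leaving out 200 bp at each end.

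The exons at the 3′ end were nearly free of optimal summits, though the list of all replicates held 9 exonic summits over the whole gene. The exonic optimal summits were those in the 5′ UTR of TSS 1 and TSS 5 and a single one in coding sequence (10612194, score 105), which was among the strongest peaks of 1 replicate. The 3 summits downstream of psq lay nearest to TSSs of CG11883, the only other annotated gene in the window, which begins at 10617662. They were 49 bp upstream (10617613; 2.22 ± 0.658), 924 bp downstream (10618586; 1.64 ± 0.749) and 367 bp upstream (10621836; 0.269 ± 0.0893; SD, n = 3 each) of the nearest of these. The outermost summit on the other side (10554289; 2.35 ± 0.570; SD, n = 3) lay 3599 bp upstream of TSS 1.

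Of the 50 summits, 36 (72%) were matched in each of the 3 replicates by one of its strongest summits at most 200 bp away, against 58.3% over all optimal summits on the arms. A further 10 were found in 2 replicates, 3 in 1 and 1 in none. The 14 not found in all had scores of at most 224. With weak peaks allowed, 48 had a summit in every replicate, and the median offset of a replicate summit was 22.0 bp. In replicate 1, the summits at 10598032 and 10598238 were matched by the same peak. Across the 48 sites Spearman's rho of the scores was 0.847 between replicates 1 and 2, 0.809 between 1 and 3, and 0.823 between 2 and 3, as a description of sites in 1 locus that share the same libraries. In the other direction, 6, 4 and 13 of the strongest summits of replicates 1, 2 and 3 were near no optimal summit, at relative scores of at most 0.771, 0.632 and 1.65. The lowest optimal summit of the window had a score of 97.7, and the highest of the 36 left out of the optimal list had 83.7.

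The GA word GAGAG, a core of the GA repeats that Psq is known to bind, was searched on both strands within 100 bp of each summit, overlapping matches counted. It occurred at 21 of 50 summits (42.0%), against 45.3% of all optimal summits on the arms, and 24.4% of all positions in the psq window have it within that distance. Within 50 bp it occurred at 32.0%, against 28.5% of all optimal summits, and within 250 bp at 58.0%, against 64.1%. Of the 10 highest sites 6 had it and of the other 40 it was found at 15. The highest site had 4 occurrences and an alternating GA run of 10 bp, and the fourth had 6. The third and the sixth had 5 each, with runs of 11 and 12 bp. The second and the fifth had 2 each, and the seventh to the tenth had none. The most, 10, were at a weaker site near CG11883 (10618586). Runs of 8 bp or more were found at 8 of 50 summits, against 10.6% of all optimal summits on the arms. The word was at 2 of the 7 summits within 500 bp of a psq TSS and at 19 of the other 43, a difference that was not tested. From 250 bp before to 50 bp after each start site it occurred 0, 2, 3, 2 and 0 times for TSS 1 to TSS 5, and 32.5% of all annotated TSSs have at least 1. A match describes the sequence and is not shown to be a binding site.

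Among the 6919 protein-coding genes with an optimal summit in the span with 5 kb on each side (49.6% of all such genes), psq and sbb had the most, with 50 each, and the median was 2. The replicates' strongest peaks gave 49, 49 and 58 for psq and 48, 47 and 50 for sbb, which overlap. Per kb, psq had 0.721, rank 45 of these genes and rank 3 among the 705 with spans of 20 kb or more, whose median was 0.0945. This rank depends on the flanks: the percentile of psq among genes with a summit was 99.4 with 5 kb, 96.1 with 1 kb and 90.9 with none. The genes most like psq in their number of summits were sbb, Eip75B (49), jing (45), Tet (40) and Mur2B (39), whose window holds all of br and its summits. Eip75B encodes a nuclear receptor of the ecdysone response. Their highest sites had relative scores of 5.83 ± 1.22, 9.97 ± 1.68, 8.19 ± 0.994, 15.3 ± 1.35 and 11.3 ± 0.820 (SD, n = 3 each), all below the 41.1 of psq. The share of summits within 500 bp of the gene's own TSSs is given with the number of those TSSs in brackets. It was 14.0% at psq (5), 6% at sbb (2), 12.2% at Eip75B (7), 6.67% at jing (3), 2.50% at Tet (2) and 2.56% at Mur2B (2). The genes of the other BTB-domain factors chosen for comparison, which differ in span, had fewer optimal summits. Among each replicate's strongest peaks psq had 52.0 ± 5.20, br 32.7 ± 2.08, lola 17.0 ± 1.00, chinmo 12.3 ± 1.15 and Trl, which encodes the GA-binding GAGA factor, 9.00 ± 1.00 (SD, n = 3 each). The optimal summits numbered 27 at br, 15 at lola, 11 at chinmo and 9 at Trl. Per kb these were 0.271, 0.210, 0.173 and 0.389, against 0.721 at psq, so Trl had the fewest but was the densest of them. The share within 500 bp of the gene's own TSSs was 14.8% at br, 26.7% at lola, 18.2% at chinmo and 22.2% at Trl, all above that of psq. All 5 TSSs of psq had an optimal summit within 500 bp, and so had 5 of 9 at br, 4 of 4 at lola, 2 of 2 at chinmo and 3 of 4 at Trl.

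**Figure D4:**
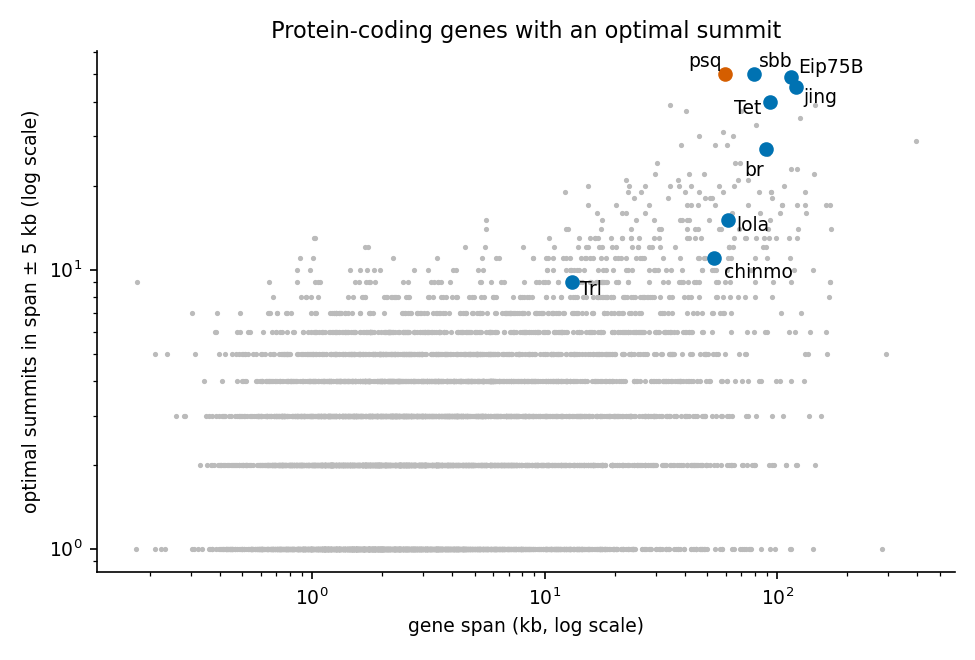
Optimal summits in the span with 5 kb on each side against gene span in kb (both axes log scale) for the 6919 protein-coding genes that have one (grey), with psq and 8 other genes marked. With 50 summits, psq stands at the top beside sbb, at a shorter span than sbb, Eip75B, jing or Tet.

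The dense binding did not begin at TSS 1. The 14596 bp between the span of the neighbouring gene lola (up to 10543291) and TSS 1 held 10 optimal summits, or 0.685 per kb. This compares with 0.724 per kb in the psq span and 0.0755 over the arms. The stretch also holds the non-coding RNA gene lncRNA:acal (10544925 to 10547260), and which gene its summits belong to was not tested. In the 50 kb after psq there were 4 (0.0800 per kb), and the replicates' strongest peaks gave 3, 3 and 3. In the 50 kb before psq there were 19 (0.380 per kb), with 23, 19 and 23 in the replicates. From 50 to 100 kb away there were 6 on either side. In the 5 kb next to the gene the density was 0.800 per kb before it and 0.600 after it. Taken as a whole, the stretch on the 5′ side up to the lola locus thus had a density near that of the gene. The density was not even there and did not end at lola. The 10 kb before TSS 1 held 8 optimal summits, the 10 kb before that, which reach into lola, 7, and the next 10 kb 4. On the 3′ side it was low over 50 kb but not in the first 5 kb, and the stretches compared differ in length.

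**Figure D5:**
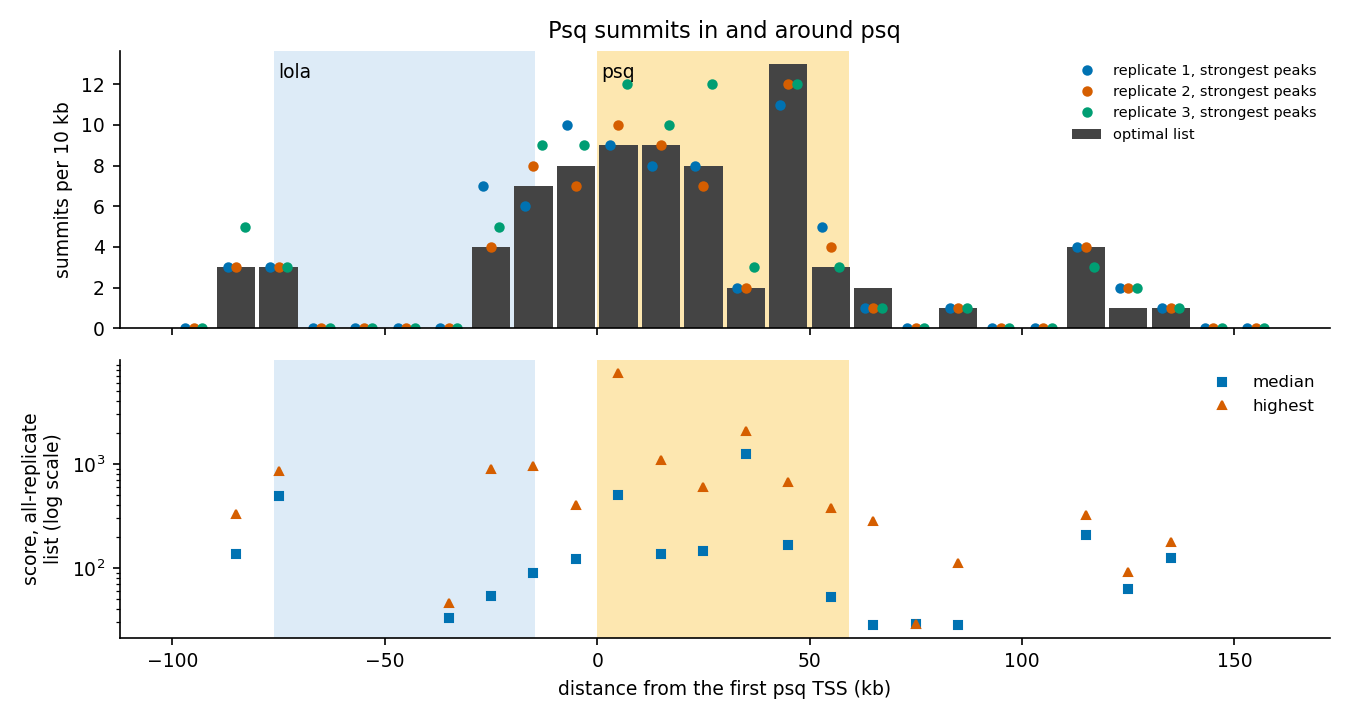
Summits per 10 kb in the optimal list (bars) and among each replicate's strongest peaks (points), and, below, the median and highest score (log scale) in the list of all replicates, by distance from TSS 1 (kb); psq and lola are shaded. Bins in psq hold 2 to 13 optimal summits, those upstream to lola at most 8, and those beyond the 3′ end of psq at most 4.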

How the data were processed

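ChIP-seq peak lists of 3 biological replicates were analysed, on dm6 for positions and on dm3 for the highest scores only. Per the deposited file listing, the authors called peaks per replicate and on all replicates together against 1 control alignment, as input to the irreproducible discovery rate (IDR), which gave the optimal list. Caller, aligner and read filters: not given in the sources used here. The score is the signal value the authors deposited per peak, used to rank and describe peaks. The −log10 q value the authors deposited ties at 4.32 for all optimal peaks and was not used further. Depth is unknown, so no interval is given.

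Summits are the deposited start plus the offset, 1-based. Annotation was Ensembl release 115 (18164 genes on 2L, 2R, 3L, 3R, 4 and X, transposable elements left out; 23998 TSSs, counted per gene) and sequence the NCBI assembly. No dm6 peak ended beyond an arm. A base of psq was exonic if in an exon of any psq transcript, and exon and intron blocks are numbered along that union. Replicate scores are those of the nearest summit within 200 bp. Python 3.11.15 with pandas 2.3.3 and numpy 2.4.6 was used, and distance and matching code was tested on simulated summits. There were no tests between groups. Nothing shows from how many animals a replicate came, so SDs measure the spread between these samples.

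The members, lists and named genes were chosen with earlier results of these data known. Named genes were psq, genes overlapping its window, Trl, lola, br and chinmo, the 5 with the most summits and the 5 nearest to psq in that number. Of the genes at the highest peaks found in all 3 replicates, psq, CG1910 and EcR are named. Smr, which holds the second peak, was added after its values were seen. Named sites were the 10 highest, those within 500 bp of a TSS and the outermost. The coding summit, the pair sharing a replicate peak and the site with the most GAGAG were chosen after their values were seen. Alternatives covered flank, list, distances, scaling, genes compared and leaving out each replicate.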

Additional observations from a re-analysis of the deposited data

How the results depend on the processing

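All 5 psq TSSs had a summit within 500 bp under every alternative list and without each replicate, and 3 had one within 200 bp. The list of all replicates gave 86 summits in the window. Leaving out a replicate, counting optimal summits found in both others, gave 38 to 40, and counting peak intervals, an alternative chosen after seeing the data, gave 43. The intronic share was 72% with promoters taken out first, 93.0% with no flank, 87.0% with a flank of 1 kb, 73.3% in the list of all replicates, 81.6%, 81.6% and 81.0% in the replicates, 79.4% in the higher-scoring part of the optimal list (5052 summits) and 78.9% to 80.0% without each replicate. The highest site's relative score was 140 when scaled to all peaks of a replicate, where the denominator holds weaker peaks, and 40.2 to 42.0 without each replicate. Its ratio to the next site was 3.27 and 3.37 in replicates 1 and 3 and 3.32 to 3.43 without each replicate. The percentile of psq in summits per kb was 99.4 among genes with a summit, 90.9 with no flank, 96.1 with 1 kb, 99.7 among all protein-coding genes and among spans of at least 20 kb, 97.8 in the list of all replicates, 99.7 in replicate 3, 99.0 in the higher-scoring part and 99.1 to 99.3 without each replicate. The cause of the drop without flanks was not tested. GAGAG was at 32.0% of summits within 50 bp and 58.0% within 250 bp (28.5% and 64.1% over all optimal summits), 33.7% in the list of all replicates, 36.7% in replicate 2, 50% in the higher-scoring part and 42.5% to 47.4% without each replicate. Summits found in all 3 replicates numbered 28 with matches within 100 bp, 41 within 500 bp and 48 in the full lists. No depth is known, so a region without a summit is only without a call. No paired analysis was possible because there is 1 group.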
